A study of Mus musculus with 108 samples.

Results

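The promoters described here are those of long non-coding RNA (lncRNA) genes that lie away from protein-coding promoters. They were chosen from the RefSeq annotation of the mouse genome build GRCm38.p6, the assembly that mm10 stands for, as the autosomal genes annotated as lncRNA whose transcription start site (TSS) was over 5 kb from every protein-coding TSS. This rule kept 9945 of 12322 autosomal lncRNA genes, out of 49210 annotated genes of all kinds on the chromosomes studied. The other 2377 lncRNA genes started within 5 kb of a protein-coding gene and were left out, since their chromatin cannot be told apart from that of the neighbour. The rule used positions alone and no measurement. Just inside the distance limit were Gm51535 at 5008 bp, B230311B06Rik at 5012 bp and Gm41640 at 5016 bp, and just outside it were Gm39794 at 4996 bp, Gm15486 at 4990 bp and Gm34617 at 4986 bp. The median distance to a protein-coding TSS was 56153 bp, the median gene length 8790 bp and the median number of exons 3, and 2230 genes (22.4%) had a curated transcript whereas the others rest on prediction alone.

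Long non-coding RNAs are transcribed by RNA polymerase II, and many are spliced like messenger RNAs, but they are not translated into protein. Some act in the nucleus on the chromatin of neighbouring genes, as at imprinted loci, some build nuclear bodies, and others serve as hosts from which small RNAs are processed. Active promoters carry H3K4me3 and H3K27ac, enhancers carry H3K4me1 with or without H3K27ac, and promoters silenced by the Polycomb complexes carry H3K27me3. In the liver, as in other tissues, many lncRNA genes are transcribed at low levels and in few cell types.

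ChIP-seq against the active marks H3K4me3, H3K27ac and H3K4me1 and the repressive mark H3K27me3 was made from livers of C57BL/6 females that had been fixed in formalin and embedded in paraffin (FFPE). Mice on standard diet were taken at 3 months (SD 3m, 8 mice, 30 libraries) and at 12 months (SD 12m, 8 mice, 29 libraries). Mice of the CR 12m group (9 mice, 29 libraries) received 30% fewer calories from the age of 3 months and were taken at 12 months. In SD 3m, SD 12m and CR 12m there were 7, 8 and 5 libraries of H3K4me3 and 7, 8 and 6 of H3K27me3. H3K27ac had 8, 7 and 9, and H3K4me1 had 8, 6 and 9. Whether these unequal numbers bear on the states was not tested. The libraries of a group had been merged by the authors, and each bin of 200 bp had been given 1 of 8 chromatin states from the combination of the marks in it. State 1 is named active TSS, state 2 flanking TSS, states 3 and 4 active enhancer 1 and 2, state 5 poised enhancer, state 6 repressed Polycomb, state 7 repeats or constitutive lamina-associated domains with weak H3K4me3, and state 8 quiescent, with none of the marks. The measurement at each promoter is therefore the state of the bin that holds the TSS, and of the 21 bins within 2 kb of it, in each of 3 groups. With a single segmentation per group there is no spread between mice and no test across mice was possible, so every difference below is given as values side by side. The 95% Wilson intervals in parentheses count TSS and say nothing of mice, and the read depth behind the states is unknown. The livers are bulk tissue, in which fewer cells of a type with a mark and less of the mark per cell cannot be told apart. As a check of the tissue, all 8 hepatocyte genes examined were in states 1 to 5 at their TSS in the 3 groups. All 6 genes of other tissues, among them Pax6 and Cd3e, were in states 6 to 8. In SD 3m only F2 was in state 1. Alb, Apoa1, Cyp2e1 and Serpina1a were in state 4, Ttr and Hnf4a in state 3 and Tat in state 5. State 1 was held by Apoa1 in SD 12m, Serpina1a in CR 12m and Cyp2e1 in both. States 1 or 2 thus do not mark every hepatocyte gene start, and many of these starts carried enhancer labels.

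Promoter sequences are printed for the members that head the main patterns, from 250 bases before to 50 bases after the annotated start, as RefSeq's GRCm38.p6 has them, 5′ to 3′ on the strand of the gene. CpG dinucleotides are in capitals. The first pair held state 1 in all 3 groups, and is shown for its dense CpG.
Gm38709 (chr4:97777374-97777673, - strand): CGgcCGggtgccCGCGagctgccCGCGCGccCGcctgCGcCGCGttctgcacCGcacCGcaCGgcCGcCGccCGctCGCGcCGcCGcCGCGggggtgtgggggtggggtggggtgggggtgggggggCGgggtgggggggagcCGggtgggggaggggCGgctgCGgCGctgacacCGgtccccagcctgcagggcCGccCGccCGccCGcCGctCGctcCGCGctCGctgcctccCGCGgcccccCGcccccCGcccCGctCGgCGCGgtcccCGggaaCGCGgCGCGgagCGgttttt
E130102H24Rik (chr4:101356199-101356498, - strand): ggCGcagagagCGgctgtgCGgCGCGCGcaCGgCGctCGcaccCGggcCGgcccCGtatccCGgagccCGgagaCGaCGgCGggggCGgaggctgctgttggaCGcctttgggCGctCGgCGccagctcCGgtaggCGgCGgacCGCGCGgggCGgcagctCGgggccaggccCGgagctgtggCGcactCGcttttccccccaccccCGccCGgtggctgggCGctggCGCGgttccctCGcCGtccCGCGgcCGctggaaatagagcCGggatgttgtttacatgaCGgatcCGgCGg
The next pair was in Polycomb state 6 in all 3 groups within a single long stretch, and is shown because its CpG content differs within that stretch.
Gm36560 (chr15:102743915-102744214, + strand): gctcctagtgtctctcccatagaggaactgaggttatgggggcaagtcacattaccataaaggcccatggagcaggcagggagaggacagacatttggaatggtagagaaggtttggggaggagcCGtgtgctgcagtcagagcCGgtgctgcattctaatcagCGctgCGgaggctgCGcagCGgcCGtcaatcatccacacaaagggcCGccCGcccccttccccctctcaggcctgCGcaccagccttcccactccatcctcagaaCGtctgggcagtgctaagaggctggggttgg
Cistr (chr15:102746860-102747159, - strand): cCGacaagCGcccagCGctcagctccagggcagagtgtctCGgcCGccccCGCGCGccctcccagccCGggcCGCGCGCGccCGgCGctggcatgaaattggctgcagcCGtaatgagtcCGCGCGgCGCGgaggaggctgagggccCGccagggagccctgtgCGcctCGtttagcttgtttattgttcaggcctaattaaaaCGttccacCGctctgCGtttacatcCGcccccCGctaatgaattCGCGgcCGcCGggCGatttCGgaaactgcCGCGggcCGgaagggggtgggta
The third pair was in quiescent state 8 in SD 3m and in state 7 in SD 12m, inside the longest stretches of state 7 that held such a TSS.
Gm45942 (chr1:28895539-28895838, - strand): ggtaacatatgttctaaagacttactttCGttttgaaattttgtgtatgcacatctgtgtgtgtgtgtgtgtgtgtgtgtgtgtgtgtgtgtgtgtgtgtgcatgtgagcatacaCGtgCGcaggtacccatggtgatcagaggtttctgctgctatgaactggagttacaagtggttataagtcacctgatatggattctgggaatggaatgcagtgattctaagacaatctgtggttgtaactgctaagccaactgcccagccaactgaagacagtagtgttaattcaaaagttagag
A430085M09Rik (chr4:78593797-78594096, + strand): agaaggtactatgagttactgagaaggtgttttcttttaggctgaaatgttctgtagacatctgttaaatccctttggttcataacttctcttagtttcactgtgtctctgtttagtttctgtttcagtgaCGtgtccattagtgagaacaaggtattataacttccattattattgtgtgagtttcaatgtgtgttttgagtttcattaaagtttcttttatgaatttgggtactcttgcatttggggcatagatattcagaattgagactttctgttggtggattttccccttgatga
The last sequence belongs to a promoter in state 1 in SD 3m and in state 7 in both 12-month groups.
Gm33787 (chr13:67421193-67421492, + strand): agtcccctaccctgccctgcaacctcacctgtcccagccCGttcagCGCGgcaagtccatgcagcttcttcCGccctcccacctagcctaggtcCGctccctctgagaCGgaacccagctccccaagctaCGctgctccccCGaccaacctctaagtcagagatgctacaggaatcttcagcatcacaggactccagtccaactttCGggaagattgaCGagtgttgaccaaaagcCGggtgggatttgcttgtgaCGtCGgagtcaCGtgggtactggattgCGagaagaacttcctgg
The 300 bases of Gm38709 held 52 CpG and 85.3% G+C, and those of E130102H24Rik 47 CpG and 76.7% G+C. Cistr held 38 CpG and Gm36560, about 3 kb away from it, 11. Gm45942 and A430085M09Rik held 3 and 1, with 42.7% and 35.0% G+C. No member was in state 1 in both 12-month groups and in states 6 to 8 in SD 3m, so no sequence stands for that direction.

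The first question was which chromatin states lncRNA promoters hold in the young liver. Quiescent chromatin was the most frequent, followed by the enhancer states, while TSS states were rare. In SD 3m, 48.5% of the 9945 TSS were in state 8, 33.8% (32.9 to 34.7) in enhancer states 3 to 5, 13.4% in Polycomb state 6, 3.31% (2.97 to 3.68) in TSS states 1 or 2 and 1.01% in state 7. Protein-coding TSS that were over 5 kb from any other protein-coding TSS (16739 genes) had a different make-up, with 36.0% in states 1 or 2 and 20.4% in states 3 to 5. The comparison with genomic bins of the same kind, the 11054163 autosomal bins over 5 kb from protein-coding TSS, was made next. Of these bins 0.42% were in states 1 or 2, 21.5% in states 3 to 5, 8.19% in state 6 and 67.9% in state 8. TSS states were thus rarer at lncRNA TSS than at protein-coding TSS but more frequent than in the bins, while states 3 to 5 were more frequent than in both. State 1 was 12.7 times and state 6 1.63 times as frequent at lncRNA TSS as in these bins, and state 7 0.50 times as frequent. With bins weighted to match the members' distances to protein-coding TSS and gene-body positions, 10.5% were in state 6. The ratio of members to weighted bins was 1.27 for state 6 and 0.44 for state 7.

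**Figure D1:**
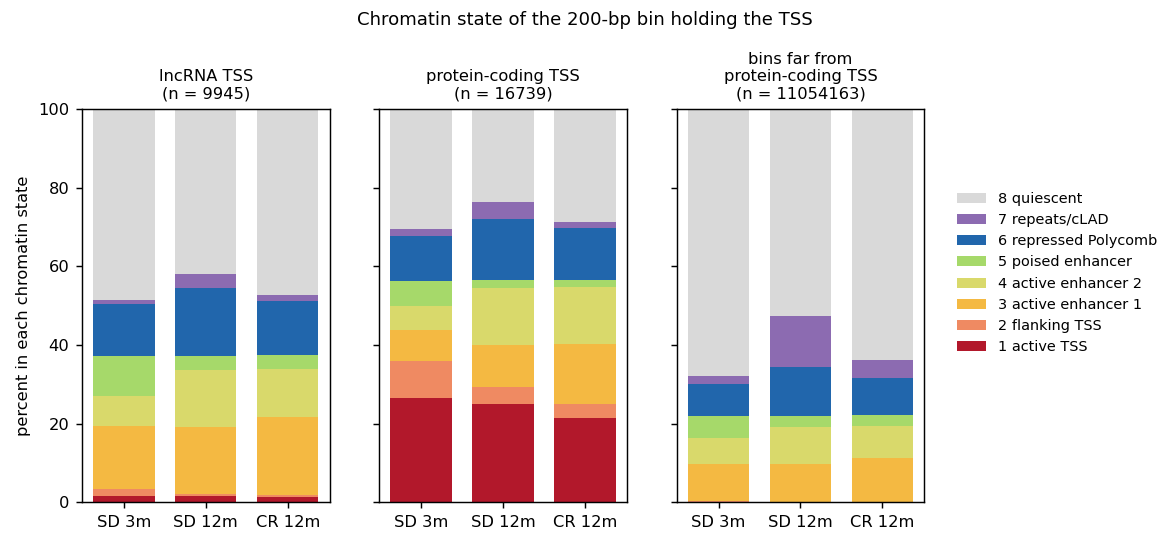
Percent of lncRNA TSS, of protein-coding TSS over 5 kb from another, and of bins over 5 kb from protein-coding TSS in each of the 8 chromatin states, by group. TSS states 1 and 2 hold 3.31% of the lncRNA TSS in SD 3m against 36.0% of the protein-coding TSS, and state 7 holds 12.9% of the bins in SD 12m against 3.78% of the lncRNA TSS.

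TSS states 1 and 2 formed a peak at the lncRNA start. In SD 3m their share was 1.43% at 2 kb upstream, 3.31% at the TSS bin, 3.77% in the next bin downstream and 1.73% at 2 kb downstream. In the same positions protein-coding TSS had 4.10%, 36.0%, 39.2% and 25.5%, so the peak there was higher and leaned further into the gene. Enhancer states showed no such peak: their share was 33.8% at the lncRNA TSS, 32.6% at 5 kb upstream, 31.1% at 20 kb upstream and 32.3% at 100 kb upstream. State 6 was likewise similar at the TSS (13.4%), 5 kb upstream (13.9%) and 10 kb downstream (14.2%). Within 2 kb of the start, at least 1 bin in state 1 or 2 was found for 651 members (6.55%) in SD 3m and for 414 (4.16%) in SD 12m, while CR 12m had 354 (3.56%). For protein-coding TSS over 5 kb from another the shares were 46.5%, 42.5% and 39.8% in the same order. The wider surroundings were looked at after the values at the TSS had been seen.

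**Figure D2:**
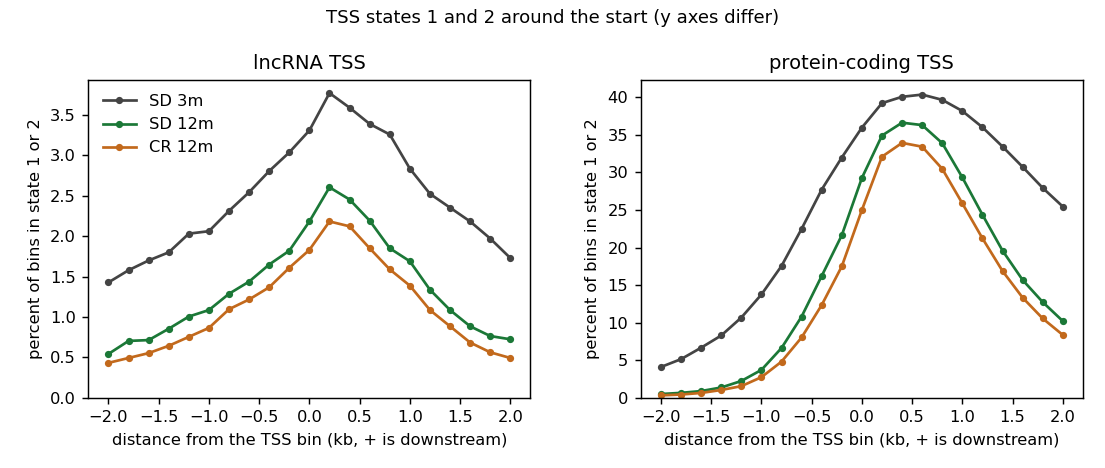
Percent of bins in state 1 or 2 at each distance from the TSS bin, for lncRNA TSS and for protein-coding TSS over 5 kb from another, with a line per group and different y axes. For lncRNA TSS the highest value lies in the first bin downstream, with 3.77% in SD 3m, 2.60% at 12 months on standard diet and 2.18% on caloric restriction.

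Part of the TSS state at lncRNA starts lay beside an alternative start of a protein-coding gene. The rule used 1 TSS per protein-coding gene, and 479 members had the 5′ end of some annotated mRNA transcript within 5 kb. Of these, 21.5% (18.1 to 25.4) held state 1 or 2 in SD 3m, with 15.4% doing so in SD 12m and 12.1% under restriction. Of the 9466 members without such an mRNA, 2.39% (2.10 to 2.71), 1.51% and 1.31% were. The 479 members made up 31.3% of all lncRNA TSS in state 1 or 2 in SD 3m, and 34.1% and 31.9% at 12 months in SD and CR. For these promoters, a mark of the lncRNA start and of the mRNA start cannot be told apart.

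The members that held state 1 at the TSS in all 3 groups numbered 79, and 27 of them (34.2%) had an mRNA start within 5 kb. Those with the most bins in state 1 or 2 within 2 kb were, in order, Gm38709, E130102H24Rik, A630026N12Rik, Chaserr, Gm52285 and Gm32139. Gm38709 (chromosome 4, 97750647 to 97777423, minus strand) starts inside Nfia, which encodes a transcription factor of the nuclear factor I family, on the other strand and 158 bp from an mRNA start. It had 21, 21 and 19 of 21 bins in states 1 or 2 in SD 3m, SD 12m and CR 12m. A630026N12Rik in Gabpb1 (47 bp), Gm52285 in Srrm2 (117 bp) and Gm32139 in Kcnn2 (543 bp) also started close to an mRNA 5′ end. E130102H24Rik (chromosome 4, 101346524 to 101356248, minus strand) and Chaserr (chromosome 7, 73539798 to 73558395, minus strand), which regulates its neighbour Chd2, did not, with the nearest mRNA start at 60.2 kb and 16.6 kb. E130102H24Rik had 21, 20 and 20 bins in states 1 or 2, and Chaserr 21, 17 and 18.

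Promoter sequence was the feature along which TSS states differed most among the members, in the features examined. A promoter was called CpG-rich when its 300 bases had at least 50% G+C and a ratio of observed to expected CpG of at least 0.6. This held for 394 members (3.96%), and for 38.8% of the 20558 autosomal protein-coding promoters. Of the CpG-rich members 38.1% held states 1 or 2 in SD 3m, whereas the 12-month groups stood at 30.2% (SD) and 25.9% (CR). Of the other 9551 members, 1.87%, 1.03% and 0.84% did. CpG-rich protein-coding promoters over 5 kb from another stood at 69.6%, 60.6% and 53.2%, so CpG-rich lncRNA promoters held TSS states less often than those in each group. Polycomb state 6 was found at 16.5%, 20.6% and 17.5% of CpG-rich members.

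The members in state 1 in SD 3m (162) had a median of 61.3% G+C and 20.5 CpG, compared to 46.7% and 3 over all members. The 6-base motif GGGCGG, the core of a GC box, was searched on both strands and was present in 55.6% of promoters in state 1 and 9.05% of all member promoters. Among all autosomal protein-coding promoters it was in 41.0%, and among those in state 1 in SD 3m in 70.3%. TATAAA, the core of a TATA box, was in 7.41% of member promoters in state 1 and 17.4% of all members. It was in 14.5% of protein-coding promoters and 6.28% of those in state 1. CCAAT showed little difference, with 34.0% of members in state 1 and 34.9% of all members. CAAAGTCCA, which resembles the HNF4A site, was in 0.50% of members, as it was of protein-coding promoters, and in 0.94% of members in state 3. CCGGAAGT was in 1.04% of members, 3.70% of members in state 1, 4.55% of protein-coding promoters and 10.2% of protein-coding promoters in state 1. GCGCATGCG was in 0.30%, 3.09%, 2.10% and 4.70% in the same order. The sets differ in G+C, and whether the motif shares go beyond what base composition gives was not tested.

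Curated lncRNA genes held TSS states more often than predicted ones. In the order SD 3m, SD 12m, CR 12m, states 1 or 2 were held by 8.61%, 6.10% and 5.29% of the 2230 curated members, against 1.78%, 1.05% and 0.83% of 7715 predicted members. The order was the same among CpG-rich promoters (46.5% of 200 curated and 29.4% of 194 predicted members in SD 3m). Of the 80 genes with a single exon, 29, 23 and 20 held these states. Of the 308 genes that bear a name rather than a Gm, Rik or LOC number, 45, 34 and 31 did.

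The enhancer states 3 to 5 were the main active chromatin of lncRNA starts, and their share depended on where the gene lay. Of the 7270 members outside protein-coding genes 30.2% were in states 3 to 5 in SD 3m, compared to 11.8% of bins outside gene bodies. Of the 2315 members inside a protein-coding gene on its other strand 43.2% were, and of the 360 on the same strand 46.4%, compared to 36.0% of bins inside gene bodies. The share was thus higher inside genes, while the distance from the bins was larger outside them. With bins weighted to match the members' distances and gene-body positions, an added comparison, 21.7% of bins were in states 3 to 5 in SD 3m and the members' share was 1.56 times that.

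The share of enhancer states was lower the farther the next protein-coding TSS was. In SD 3m it was found at 398 of the 813 members at 5 to 10 kb, 39.9% at 20 to 50 kb, 27.5% at 100 to 200 kb and 7.49% of the 414 members at over 500 kb. Bins at the same distances stood at 43.7%, 33.2%, 15.3% and 1.45%. State 7 in SD 12m ran in the opposite direction, with 1.60% of members at 5 to 10 kb, 2.76% at 100 to 200 kb, 8.15% at 200 to 500 kb and 23.2% at over 500 kb. In the bins it was 4.12%, 9.76%, 18.4% and 40.6%. In every distance class the members were above the bins in states 3 to 5 and below them in state 7, in all 3 groups.

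**Figure D3:**
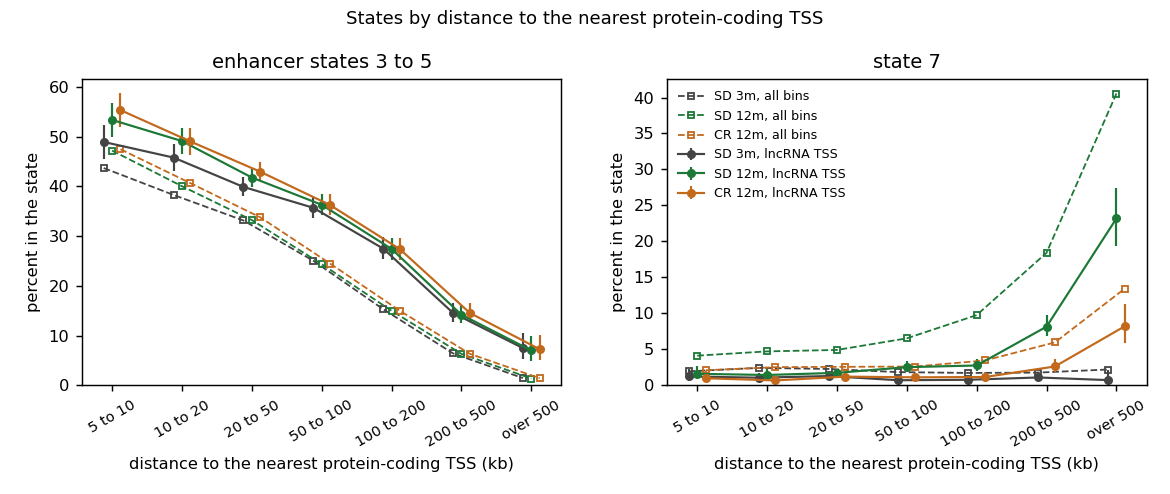
Percent of lncRNA TSS (filled points, with Wilson 95% intervals that count TSS) and of all bins (open squares) in enhancer states 3 to 5 and in state 7, by distance to the nearest protein-coding TSS, with a colour per group. Over 500 kb away, state 7 holds 23.2% of lncRNA TSS and 40.6% of bins in SD 12m, and 0.72% and 2.20% in SD 3m.

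State 3, named active enhancer 1, was found in all 3 groups at 1329 members. The members with the longest stretches of it were Gm40208 within Nfia, Gm39272 within Ankrd11, Gm52867 within Magi1, and Gm46362, Gm51985 and 9430078K24Rik, which share a stretch about 200 kb from Zfp36l1. The stretch around Gm40208 (chromosome 4, 97937840 to 97948619) was 144.2 kb in SD 3m, 106.2 kb in SD 12m and 237.6 kb in CR 12m. The 3 starts near Zfp36l1, which encodes an RNA-binding protein that destabilises mRNAs, shared 87.4 kb, 137.6 kb and 78.4 kb. None of these 6 members had a bin in state 1 or 2 within 2 kb in any group. These are the longest cases. Over all members in state 3, the median stretch was 7200 bp in SD 3m, with a lower quartile of 3000 bp, compared to 11200 bp on standard diet and 14800 bp under restriction at 12 months.

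Polycomb state 6 covered lncRNA starts in broad stretches. In SD 3m, 1328 members in state 6 fell into 1115 separate stretches. The stretch around a member's TSS had a median of 29300 bp, with a shared stretch counted for each member in it. At 12 months 1701 members in SD and 1362 in CR were in state 6, and the median over members was 41400 bp and 36500 bp. State 6 was found in all 3 groups at 607 members. The longest such stretch held Gm36560, Cistr and Hotair (chromosome 15, 102944062 to 102947946, minus strand). It was 321.2 kb long in SD 3m, 338.8 kb in SD 12m and 333.2 kb in CR 12m. It reached into the HoxC cluster, since the TSS of Hoxc11, 6.58 kb from that of Hotair, lay in it as well. Hotair is the HoxC lncRNA known for its link to Polycomb, and Cistr has been linked to cartilage formation. Next came Sfta3-ps beside Nkx2-1, a regulator of lung and thyroid (220.6, 311.2 and 223.2 kb), Gm14424 beside Hoxd1 (211.2, 241.8 and 227.4 kb) and Gm20759, whose nearest protein-coding gene is Tbx4, a regulator of hindlimb development (201.8, 205.2 and 205.8 kb). In SD 3m a stretch of 116.2 kb near En2 and Insig1 held 5 members in state 6 in all groups, while stretches of 76.2 kb near Zic1 and Zic4 and of 36 kb on chromosome 6 held 4 each. Stretches with 3 such members lay near Tcf21, Gpr6, Hoxb13 and Hoxb9, Vmn1r223 and Zfp322a, and Foxd1. These stretches were picked for their number of members after the values were seen, and whether the genes beside state 6 are of any one kind was not tested.

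Named lncRNA genes were described by 5 lists. Of 34 nuclear and widely expressed lncRNAs 26 were members, and 20 of these held states 1 or 2 in the young livers, 19 at 12 months on standard diet and 17 under restriction. The 20 were split evenly in SD 3m, with 10 in state 1 and 10 in state 2. Of the 10 in state 2, 7 were in state 1, the active TSS state, in SD 12m and 7 in CR 12m. Over all 167 members in state 2 the corresponding counts were 30 in SD 12m and 26 under restriction, with the 10 genes included. Neat1 (chromosome 19, 5824708 to 5845480), the scaffold RNA of paraspeckles, was in state 2 in SD 3m and in state 1 in SD 12m and CR 12m, with 21, 15 and 15 bins in states 1 or 2 within 2 kb. Its neighbour Malat1 (chromosome 19, 5795690 to 5802672), a nuclear speckle RNA, was in states 2, 1 and 1, with 21, 18 and 19 bins. The snoRNA host genes Snhg5, Snhg6 and Snhg8 held state 1 in all groups, as did Dancr, Epb41l4aos, and Dleu2, which hosts miR-15a and miR-16-1.

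The other members of that list differed in kind. Miat was in state 6 in all 3 groups. Norad (chromosome 2, 156388063 to 156392979), which binds Pumilio proteins, was in state 7 in SD 3m and in state 4 in both 12-month groups, with 9, 0 and 3 bins in states 1 or 2. Carmn, a lncRNA of smooth muscle and heart, was in state 1 in SD 3m and in state 4 at 12 months, with 15, 5 and 0 such bins. Pvt1, which lies beside Myc, was in states 3, 4 and 3, and Trp53cor1, a p53 target beside Cdkn1a, was in state 3 in each. The starts of the list thus mostly carried TSS states in each group, with narrower extent at 12 months.

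**Figure D4:**
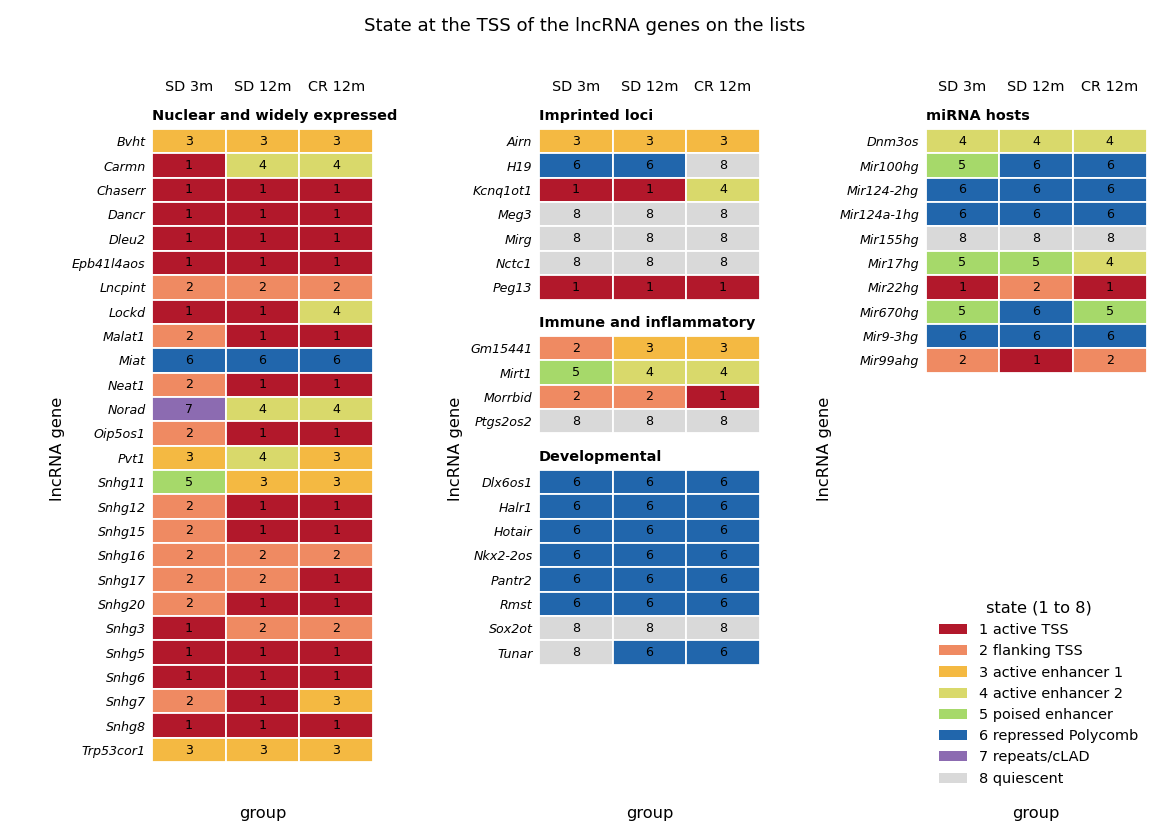
Chromatin state at the TSS of the lncRNA genes of the 5 lists, a row per gene and a column per group, coloured and numbered by state. The nuclear and widely expressed genes are mostly in states 1 and 2 (20 of 26 in SD 3m), the developmental ones in state 6 (6 of 8 in SD 3m). Mir155hg, on 2 lists, is drawn once.

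Of 24 developmental lncRNAs 8 were members, and none was in states 1 to 5 in any group. In SD 3m 6 were in state 6 and 2 in state 8, and in SD 12m and CR 12m 7 were in state 6. Hotair, Pantr2, Rmst, Dlx6os1, Nkx2-2os and Halr1 were in state 6 in all groups, Sox2ot in state 8 in all groups, and Tunar, a neural lncRNA, in state 8 in SD 3m and in state 6 at 12 months. The stretch of state 6 around Tunar was 6.60 kb in SD 12m and 12.6 kb in CR 12m. Nkx2-2os starts 2.32 kb from an mRNA start.

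Of 10 lncRNAs of imprinted loci 7 were members. Kcnq1ot1 (chromosome 7, 143213111 to 143296547), which is transcribed from the paternal allele inside Kcnq1, was in state 1 in SD 3m and SD 12m and in state 4 in CR 12m. It had 11, 11 and 10 bins in states 1 or 2 within 2 kb, so the TSS label differed in CR 12m while the block of TSS state beside it was of similar size. Peg13, inside Trappc9, was in state 1 in each group with 15, 16 and 15 bins. H19 (chromosome 7, 142575530 to 142578146), an abundant RNA of the fetal liver, was in state 6 in SD 3m within a stretch of 13 kb, in state 6 in SD 12m within 3.20 kb, and in state 8 in CR 12m. Nctc1 near it, and Meg3 and Mirg on chromosome 12, were in state 8 in all groups. Airn, the antisense RNA of Igf2r, was in state 3 in all groups, with 0, 1 and 7 bins in states 1 or 2 within 2 kb.

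Of 16 miRNA host genes 10 were members, and their states were spread over the active and the Polycomb classes. Mir22hg was in states 1, 2 and 1 and Mir99ahg in 2, 1 and 2, in the order SD 3m, SD 12m and CR 12m. Mir124a-1hg, Mir124-2hg and Mir9-3hg, hosts of neural miRNAs, were in state 6 in all groups. Mir100hg was in state 5 in SD 3m and in state 6 in SD 12m and CR 12m, inside stretches of 62.8 kb and 57.0 kb. Mir670hg was in state 5, 6 and 5. Mir155hg, host of an miRNA of activated immune cells, was in state 8 in each.

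Of 7 immune and inflammatory lncRNAs 5 were members. Gm15441 (chromosome 3, 96555768 to 96566801, minus strand), a liver lncRNA that overlaps Txnip in antisense, was in state 2 in SD 3m and in state 3 in both 12-month groups, with 19 bins in states 1 or 2 in SD 3m and 0 in each of the others. Morrbid, known for the lifespan of short-lived myeloid cells, was in states 2, 2 and 1, with 16, 11 and 7 such bins. Mirt1 was in states 5, 4 and 4, and Ptgs2os2 in state 8 throughout.

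The second question was what differed at 12 months of age on standard diet. Of the 9945 lncRNA TSS 3367 (33.9%) differed in state between SD 3m and SD 12m, which was close to the 32.5% of bins over 5 kb from protein-coding TSS and to the 35.0% of the protein-coding TSS over 5 kb from another. TSS states 1 or 2 held 2.18% (1.91 to 2.49) of lncRNA TSS in SD 12m against 3.31% in SD 3m. The bins were at 0.156% against 0.42%, and the protein-coding TSS over 5 kb from another at 29.3% against 36.0%. The ratio of members to bins was 14.0 in SD 12m and 7.85 in SD 3m. Of the 329 TSS in states 1 or 2 in SD 3m 60.5% were in those states in SD 12m, and 36.5% were in enhancer states 3 to 5, compared to 65.5% of the bins. For protein-coding TSS these shares were 77.7% and 20.9%. At lncRNA TSS the lower share lay mainly in state 2, at 1.68% in SD 3m and 0.61% in SD 12m. State 1 was at 1.63% and 1.57%. The 152 members in states 1 or 2 in all 3 groups had medians of 14, 10 and 8 such bins within 2 kb in SD 3m, SD 12m and CR 12m, and for 83.6% of them the number was lower in SD 12m than in SD 3m. Protein-coding TSS chosen in the same way (3717) had medians of 14, 10 and 9.

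Within the enhancer class, the sum was similar between ages, at 33.8% in SD 3m and 35.1% in SD 12m, but its make-up was not. The poised state 5 was at 10.1% in SD 3m and 3.65% in SD 12m, and state 4, the active enhancer state with weaker H3K27ac, was at 7.66% and 14.6%. The bins differed in the same directions, from 5.47% to 2.82% in state 5 and from 6.71% to 9.46% in state 4. Among the 1008 TSS that SD 3m had in state 5, 423 (42.0%) were assigned state 4 in SD 12m, against 31.9% of the bins in state 5. Of all TSS in states 3 to 5 in SD 3m, 90.6% were in one of these states in SD 12m, as were 89.4% of the bins.

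In the silent states the labels were exchanged in both directions. Of the 4827 lncRNA TSS in state 8 in SD 3m, 882 (18.3%) were in Polycomb state 6 in SD 12m, against 11.6% of the bins. It was 12.7% of bins weighted to the members' distances and gene-body positions. Conversely, of the 1328 that SD 3m had in state 6, SD 12m had 479 (36.1%) in state 8, against 39.5% of the bins. State 6 held 13.4% (12.7 to 14.0) of lncRNA TSS in SD 3m and 17.1% (16.4 to 17.9) in SD 12m. The weighted bins were at 10.5% and 14.4%.

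State 7 was less frequent at lncRNA starts than in bins over 5 kb from protein-coding TSS. It held 1.01% of lncRNA TSS in SD 3m and 3.78% (3.42 to 4.17) in SD 12m, against 2.01% and 12.9% of the bins. Of the quiescent TSS of SD 3m, 302 (6.26%) were in state 7 in SD 12m, against 16.8% of the bins. With bins weighted to the members' distances and gene-body positions the background was 13.7%, and the ratio of members to bins 0.46. Close to the members state 7 was about as frequent as at the TSS, at 3.57% 2 kb upstream and 3.73% 2 kb downstream in SD 12m, and at 10 kb it was at 4.24% and 4.46%. At 100 kb upstream and downstream it was still at 4.19% and 4.60%. The low share was thus not confined to the starts but was found in the wider regions around them. The 302 promoters had a median of 41.5% G+C and TATAAA in 32.1% of them, compared to 46.3% and 19.1% over all members in state 8 in SD 3m. The 496 protein-coding promoters with the same change of state differed in the same directions. They had 35.7% and 37.3%, compared to 46.0% and 24.7% of protein-coding promoters in state 8 in SD 3m. TATAAA holds only A and T, and whether its share goes beyond what the lower G+C gives was not tested.

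The members inside the longest stretches of state 7 in SD 12m among these 302 were mostly predicted genes, as are most members (22.4% of all had a curated transcript). They lay 115.3 kb to 1035 kb from a protein-coding TSS, with a median of 56153 bp over all members. Gm45942 (chromosome 1, 28796145 to 28895588, minus strand), 115.3 kb from a protein-coding TSS, lay in 202.0 kb of state 7 in SD 12m and was in state 8 in SD 3m and CR 12m. A430085M09Rik (chromosome 4, 78594047 to 78597484), 382.3 kb from Ptprd, lay in 201.6 kb of state 7 in SD 12m and 48.4 kb in CR 12m. Gm40623 followed with 187.0 kb and 26.8 kb, and Gm31349, inside Smyd3, with 158.6 kb and 155.4 kb. Gm39589, 1035 kb from a protein-coding gene start, had 144.8 kb and 16.4 kb. Gm36136, 695.2 kb from Adarb2, lay in 159.8 kb of state 7 in SD 12m and was in state 8 in CR 12m.

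The third question was how the same promoters stood at 12 months under caloric restriction. Compared to SD 3m, 3090 lncRNA TSS (31.1%) had another state in CR 12m, against 23.9% of the bins and 36.5% of the protein-coding TSS. The 3-month segmentation is used in this comparison and in that of SD 12m, and they are therefore not independent of each other. TSS states 1 or 2 were at 1.83% (1.58 to 2.11). Of the 329 TSS in these states in SD 3m 51.4% were in them in CR 12m and 46.5% were in states 3 to 5, against 71.8% of the bins. State 3 was at 19.9%, which was above the 16.0% of SD 3m and the 16.9% of SD 12m. The bins had the same order, at 11.2% against 9.29% and 9.47%, and the ratio of members to bins was 1.72 in SD 3m and 1.78 at 12 months on either diet. Among the poised TSS of SD 3m, 313 (31.1%) had state 4, against 23.4% of the bins.

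Polycomb state 6 and state 7 at lncRNA starts were closer to the young values in CR 12m than in SD 12m. State 6 was at 13.7% and state 7 at 1.58% in CR 12m. The order was that of the bins, which in SD 3m, SD 12m and CR 12m had 8.19%, 12.6% and 9.48% in state 6 and 2.01%, 12.9% and 4.70% in state 7. Of the 4827 quiescent TSS of SD 3m, 575 (11.9%) had state 6, against 7.50% of the bins, and 105 (2.18%) had state 7, against 5.31% of the bins. With bins weighted to the members' distances and gene-body positions the backgrounds were 8.35% and 4.39%. Of the Polycomb TSS of SD 3m, 529 (39.8%) had state 8, against 45.2% of the bins. The median stretch of state 7 around a TSS was 6400 bp in SD 3m, 17700 bp in SD 12m and 9800 bp in CR 12m.

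**Figure D5:**
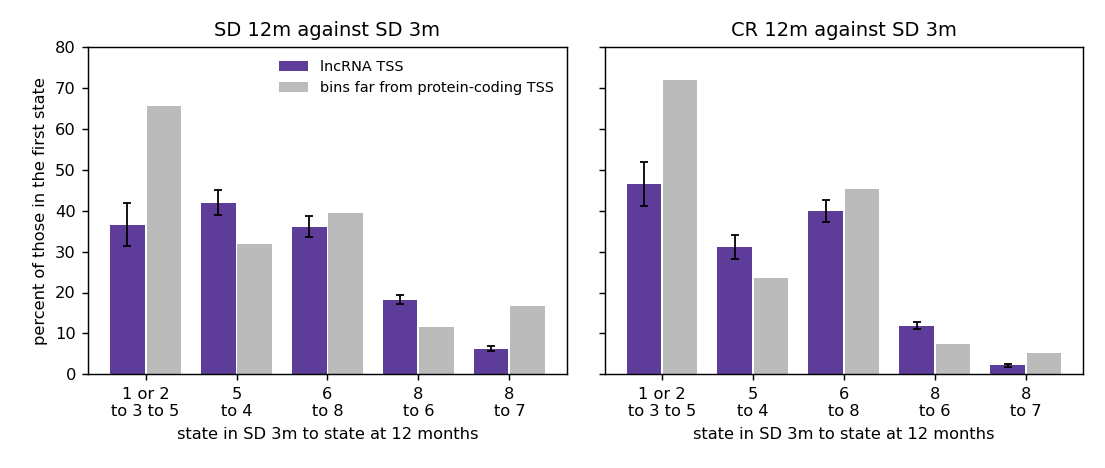
Percent of the TSS or bins in a given state in SD 3m that were in another given state in SD 12m (left) or CR 12m (right). Purple bars are lncRNA TSS with Wilson 95% intervals that count TSS, and grey bars are bins over 5 kb from protein-coding TSS. State 8 to 7 is 6.26% of TSS against 16.8% of bins in SD 12m, and state 8 to 6 is 18.3% against 11.6%.

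The diets were also compared directly, without SD 3m. Of the 9945 lncRNA TSS 2474 (24.9%, 24.0 to 25.7) differed in state between the diets, against 25.1% of the bins. Restriction had 229 (60.9%, 55.9 to 65.7) of the 376 TSS of state 7 in quiescent state 8, against 67.4% of the bins, and 125 (33.2%) in state 7 as well. It had 633 (37.2%, 34.9 to 39.5) of the 1701 Polycomb TSS of SD 12m in state 8, against 45.0% of the bins. In the reverse direction, 267 (6.42%) of the 4159 quiescent TSS of SD 12m were in state 6 under restriction, against 4.33% of the bins. State 1 was held on both diets by 101 of the 156 TSS that had it in SD 12m (64.7%), against 46.4% of the bins and 73.7% of the protein-coding TSS over 5 kb from another.

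The last set of named genes holds the 3 members that were in state 1 in SD 3m and in states 6 to 8 in both 12-month groups. Gm33787 (chromosome 13, 67421443 to 67424481), inside Zfp459 and 25 bp from an mRNA start, was in state 7 in both. Gm41773, inside Cfap53, was in state 7 in both. 9330175M20Rik (chromosome 1, 51218386 to 51333779), near Cavin2, was in state 6 in SD 12m and in state 8 in CR 12m. They had 5, 5 and 4 bins in states 1 or 2 within 2 kb in SD 3m. In SD 12m they had 0, 3 and 0, and in CR 12m 0, 0 and 0. The state 7 stretch of Gm41773 in SD 12m ended at the TSS bin, so TSS states remained beside it.

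Autosomes were compared as separate parts of the genome, which are not replicates of a condition. On 19 of 19 autosomes the share of lncRNA TSS in states 1 or 2, in states 3 to 5 and in state 6 was above that of the bins in each group, and the share in states 7 and 8 below it. The share in states 1 or 2 was lower at 12 months than in SD 3m on all 19 for either diet. State 7 at lncRNA TSS was above SD 3m on 18 autosomes in SD 12m and on 11 in CR 12m, and state 6 on 18 and 11.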

How the data were processed

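The authors made mm10 ChIP-seq alignments with BWA (0.6.2-r126) and SAMtools (0.1.18), as the submitters' processing notes list them, merged the libraries of each group and ran ChromHMM with 8 states in 200-bp bins. The deposited files hold 1 state label per segment, with no signal, count or score. No spread between mice and no depth can be had from them. SD 6m was not analysed here.

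Gene starts, biotypes and bodies were taken from RefSeq's GRCm38.p6 annotation, with 1 TSS per gene. Each TSS was given the label of its bin, and the 21 bins within 2 kb were read in the same way. Counts were written beside those of bins over 5 kb from protein-coding TSS and of protein-coding TSS. Named genes were the members of 5 lists, and the first 6 members of each of 6 patterns by stretch length or number of bins in states 1 or 2. The members and lists were chosen with earlier results of these data known. The promoter sequence table held 7239 members (72.8%), and promoter features were read from the genome sequence at the same positions. Assignments were tested on simulated segmentations. Python 3.11.15, numpy 2.4.6, pandas 2.3.3, scipy 1.17.1, matplotlib 3.10.9 and pyfaidx 0.9.0.4 were used. Alternatives changed the definition of the members, the start and the way a state was assigned.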

Additional observations from a re-analysis of the deposited data

Results flagged for a closer look

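In 4 classes of lncRNA promoters a state was above its SD 3m share in SD 12m and below it in CR 12m, so that the diets stood on opposite sides of the young group. They were the only such cases among many shares looked through. These were each state over all members, and states 1 or 2 by curation, CpG and exon class. States 3 to 5 and state 6 were looked at by gene-body position, and states 3 to 5 and state 7 by distance. Outside protein-coding genes, Polycomb state 6 was at 15.2% in SD 3m, 18.9% in SD 12m and 14.6% under restriction. Bins outside protein-coding genes were at 9.36%, 13.7% and 10.3%, so there restriction did not lie below the young group. State 7 at 5 to 10 kb from a protein-coding TSS was at 1.23%, 1.60% and 0.98% in the same order, from only 10, 13 and 8 TSS, with bins at 1.94%, 4.12% and 2.10%. At 10 to 20 kb it was at 1.06%, 1.44% and 0.68% (14, 19 and 9 TSS), with bins at 2.42%, 4.72% and 2.53%. At 20 to 50 kb it was at 1.29%, 1.73% and 1.21% (32, 43 and 30 TSS), with bins at 2.27%, 4.92% and 2.57%. The difference between the diets was not tested, since each group has a single segmentation.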

How the results depend on the processing

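No paired analysis was possible because the libraries of each group were merged into 1 segmentation. For 10 shares, 9 alternatives gave 90 values, of which 52 lay within the Wilson interval of the reported value and 38 outside it, and leaving out each autosome in turn, chosen after seeing the data, gave 190 values within it. The share in states 1 or 2 (SD 3m, SD 12m, CR 12m) was 2.39%, 1.51% and 1.31% with every mRNA 5′ end counted as protein-coding TSS, 2.89%, 1.87% and 1.58% beyond 10 kb, 11.2%, 8.93% and 7.98% for all autosomal lncRNA genes, 8.61%, 6.10% and 5.29% for curated genes, 2.14%, 0.764% and 0.483% by the most frequent state within 2 kb, and 0.377%, 0.269% and 0.202% without TSS near a state boundary. Outside gene bodies it was 2.75% in SD 3m and 1.79% in SD 12m. States 3 to 5 in SD 3m were at 32.4% beyond 10 kb, 31.8% for all lncRNA genes, 29.0% for curated genes, 30.2% outside gene bodies and 24.5% without boundaries. In SD 12m, state 6 was at 18.9% outside gene bodies and 21% without boundaries, state 7 at 3.39% for all lncRNA genes, 4.47% outside gene bodies and 4.43% without boundaries, and 7.14% of the quiescent TSS outside gene bodies were in state 7. A different state from SD 3m was held in SD 12m by 35.3% of curated genes, 35.3% outside gene bodies and 29.6% without boundaries, and in CR 12m by 30.2% beyond 10 kb, 32.7% of all lncRNA genes, 30.1% by the most frequent state and 25.1% without boundaries. States 1 or 2 were lower at 12 months on either diet, and quiescent TSS in state 7 more frequent in SD 12m than in CR 12m, in 29 of 29 settings.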
